A study of Saccharomyces cerevisiae with 6 samples.

Results

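The genes described here are those of sulfate assimilation and of methionine and cysteine metabolism in *Saccharomyces cerevisiae*. They were chosen by symbol from a list of 33 genes that covers the enzymes, permeases and regulators of the pathway. All 33 were found among the 5925 genes listed for each library, and each of them passed the low-count filter, which left 5774 genes for the tests.

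Budding yeast can build both sulfur amino acids from inorganic sulfate. Sulfate is taken up, activated with ATP to adenylyl sulfate and then to phosphoadenylyl sulfate (PAPS), and reduced to sulfite and sulfide. Sulfide is joined to O-acetylhomoserine to give homocysteine, which is methylated to methionine or passed by transsulfuration to cysteine. Methionine is further activated to S-adenosylmethionine, the main methyl donor of the cell. The genes of this route are classic targets of Met4p, an activator that does not bind DNA well by itself and is brought to promoters by Cbf1p, which binds CACGTG, or by Met31p and Met32p, whose sites hold the core CTGTGG. Met30p, the F-box subunit of a ubiquitin ligase, restrains Met4p when sulfur amino acids are plentiful.

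Transcript levels were compared between BSGX001 and BSGX001 (thi2Δ), with 3 poly(A) RNA libraries per strain. Both strains derive from CEN.PK 113-5D and share, by their labels, the xylose pathway alleles Ru-XI, XK and gre3::PPP, the deletion cox4delta and adaptive evolution in xylose. BSGX001 (thi2Δ) is labelled thi2delta in addition, for a deletion of the gene of a transcription factor for thiamine synthesis. Cells were taken at 20 h of a fermentation with glucose and xylose at 20 g/L each in yeast nitrogen base with ammonium sulfate, the point that the labels call the GX stage of the co-fermentation. The labels name no methionine or cysteine in the medium. They do not say whether the replicates were separate cultures or how many clones of BSGX001 (thi2Δ) were used, so the p-values measure the spread between these libraries, which may be technical. In such bulk RNA, fewer cells that express a gene and less of its RNA per cell cannot be told apart.

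The libraries held 7584920 to 12255688 counts, and the 33 genes together took 0.389% to 0.412% of them. Reads of *THI2* itself were fewer in the libraries labelled BSGX001 (thi2Δ), at 128, 90 and 141, than in those of BSGX001, at 215, 203 and 187, but they were not absent. Where in the gene these reads lie, and whether it was lost in full, was not tested. BSGX001 (thi2Δ) stands here and below for the libraries so labelled. *COX4* and *GRE3*, both altered by the labels, kept at least 222 and 395 counts in every library. Most genes of chromosome I, and of chromosome XII between *ECM22* and *GAS2*, were raised in BSGX001 (thi2Δ), the log2 fold changes having medians of 0.99 (85 genes) and 1.06 (107 genes), against -0.0046 for the other 5582 tested genes. *CYS3* lies in the former region and *MET17* in the latter, and the other 31 members lie outside both. The raised regions and the thi2Δ label belong to the same libraries, and what goes with the one or the other cannot be told apart.

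The promoters of the members share short sequence words. These words were looked for because they are the sites of Cbf1p and of Met31p and Met32p named above. The members were chosen by symbol, but as genes of a route with classic targets of Met4p, so the shares are a description. *MHT1* and *MMP1* share the same CTGTGG sites and are both counted. In the 500 bases before the start codon in the S288C reference (RefSeq, R64), CACGTG was found for 20 of the 33 members (60.6%) and for 6.31% of 5768 tested genes. CTGTGG, read on both strands, was found for 21 members (63.6%) and for 13.3% of tested genes. Its longer form AAACTGTGG, which contains CTGTGG, was found for 12 members (36.4%) and for 0.867% of tested genes. A match is a description of the letters and not a measured binding site, and the strain's own genome was not used here. The stretches below are 60 bases each, written 5′ to 3′ on the strand of the gene, and the capitals mark CACGTG or CTGTGG. In *STR3* the latter lies on the other strand and reads CCACAG. They are shown for the 6 members that were lower under every setting tried and for the shared promoter of the neighbouring *MHT1* and *MMP1*. Stretches are also given for the 2 members in the raised regions, and for *MET14*, whose step precedes that of *MET16* and whose level differed little. The *MUP3* promoter also holds CACGTG, at 462 bases before the start codon and outside the stretch shown.
MET16, chrXVI:877778-877837, reverse strand: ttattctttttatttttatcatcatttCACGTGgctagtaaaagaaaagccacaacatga
MET22, chrXV:207279-207338, reverse strand: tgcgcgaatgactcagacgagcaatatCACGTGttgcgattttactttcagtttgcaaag
STR3, chrVII:156395-156454, reverse strand: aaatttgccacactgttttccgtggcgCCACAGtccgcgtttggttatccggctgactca
MUP3, chrVIII:26035-26094, forward strand: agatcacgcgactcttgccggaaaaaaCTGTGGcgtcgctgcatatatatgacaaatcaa
MET12, chrXVI:506494-506553, reverse strand: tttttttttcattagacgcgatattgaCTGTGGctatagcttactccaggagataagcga
MET4, chrXIV:427378-427437, forward strand: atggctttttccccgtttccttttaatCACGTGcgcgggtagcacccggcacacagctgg
MHT1 and MMP1, chrXII:17766-17825, reverse strand: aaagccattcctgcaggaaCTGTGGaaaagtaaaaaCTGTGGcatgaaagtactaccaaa
MET17, chrXII:732228-732287, forward strand: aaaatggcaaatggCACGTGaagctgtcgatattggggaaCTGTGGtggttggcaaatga
CYS3, chrI:130556-130615, forward strand: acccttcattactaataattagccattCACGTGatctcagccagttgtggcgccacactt
MET14, chrXI:439581-439640, reverse strand: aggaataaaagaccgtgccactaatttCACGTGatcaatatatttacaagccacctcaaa

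Across the pathway, edgeR's quasi-likelihood test called 4 of the 33 members higher in BSGX001 (thi2Δ) (*MHT1*, *MMP1*, *MET13* and *CYS3*) and 12 lower, with 0.05 as the limit for the adjusted p. Over all 5774 tested genes, 26.1% were higher and 25.2% were lower, so that 48.5% of the members and 51.3% of all genes were called. The share of members called is thus near the background. In 4 members every library of BSGX001 (thi2Δ) lay above those of BSGX001 and in 14 every one lay below, which is the case for 29.1% and 28.7% of all tested genes. The median log2 fold change of the 33 members was -0.13, against 0.0093 over all tested genes. None of the members reached a 2-fold difference, which was found for 2.39% of all genes. The values ran from -0.89 for *MET16* to 0.68 for *MHT1*. Scaling by library totals in place of edgeR's TMM method raised the median of all genes to 0.22 and gave 12 members higher and 6 lower, against 51.9% and 10.3% of all genes. Relative to the median of all genes, the median of the members was -0.14 in both cases. The 6 genes that were lower under every setting were *MET16*, *STR3*, *MUP3*, *MET22*, *MET4* and *MET12*, and *MHT1* was the member higher under every setting. Leaving out BSGX001 replicate 1 or BSGX001 (thi2Δ) replicate 1 reduced the count of 4 higher members to 2, and leaving out BSGX001 (thi2Δ) replicate 3 reduced it to 1. Of all tested genes, 23.1%, 24.3% and 21.5% were then higher, in that order.

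**Figure D1:**
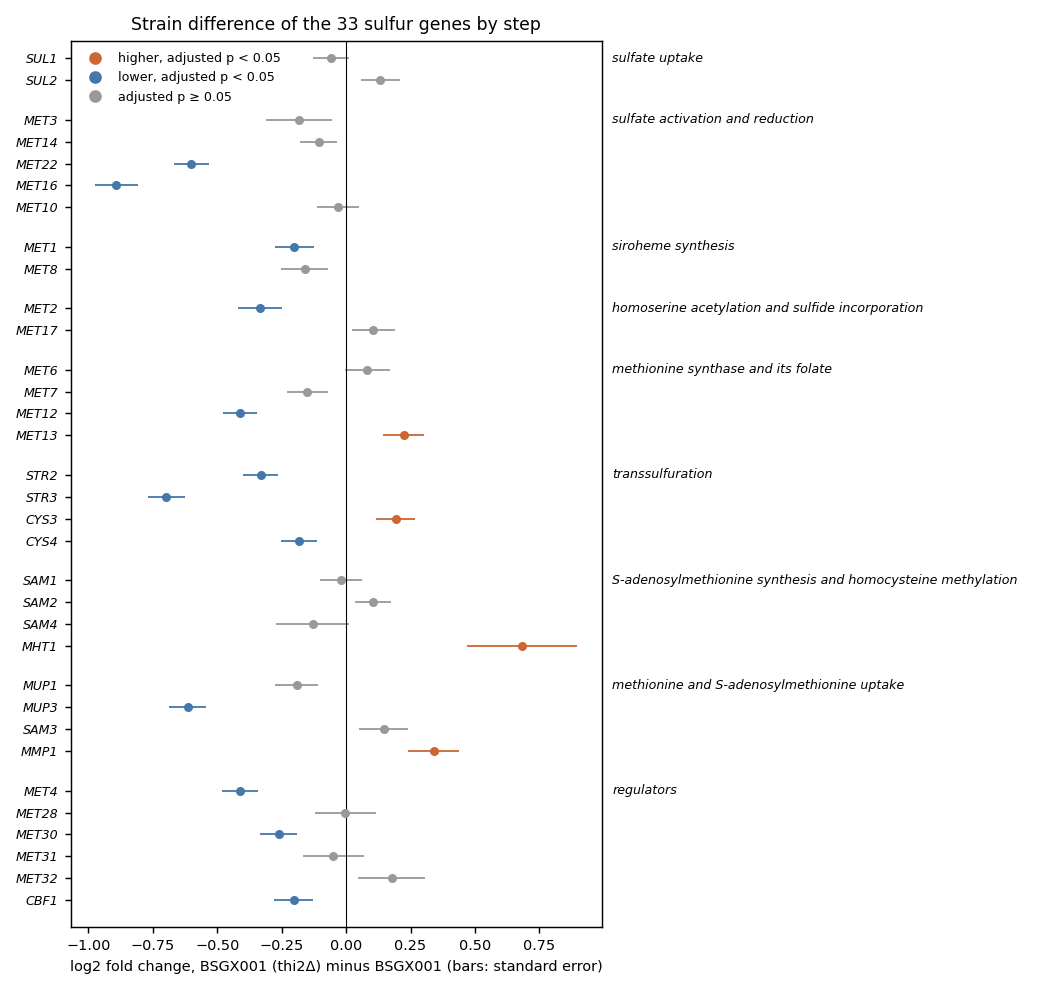
Log2 fold change of each of the 33 genes, BSGX001 (thi2Δ) minus BSGX001, on the x axis, with the genes ordered by step on the y axis and bars for the standard error of the edgeR fit (3 libraries per strain). *MET16* lies farthest to the left at -0.89 and *MHT1* farthest to the right at 0.68, and most genes lie within 0.5 of 0.

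Neither gene of sulfate uptake passed the test with TMM scaling, which 51.3% of all tested genes did. *SUL1* and *SUL2* encode the high-affinity sulfate permeases. *SUL1* was read at 183 ± 6.50 and 176 ± 8.10 CPM (counts scaled by TMM to a common library total, mean ± SD, n = 3 in BSGX001 and BSGX001 (thi2Δ), in that order here and below) and *SUL2* at 94.4 ± 6.93 and 104 ± 4.29 CPM. Their log2 fold changes were -0.059 (standard error 0.069) and 0.13 (standard error 0.075), with edgeR adjusted p of 0.491 and 0.144. With library totals both were called higher, *SUL1* at 0.16 (edgeR adjusted p = 0.0445) and *SUL2* at 0.35 (edgeR adjusted p = 0.000336), where the median of all genes was 0.22.

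Of the 5 genes of sulfate activation and reduction, 2 fell and none rose, so 40% were called, beside 51.3% of all tested genes. *MET16* encodes PAPS reductase, which forms sulfite. It was read at 106, 108 and 98.0 CPM in BSGX001 and at 62.5, 49.7 and 55.1 CPM in BSGX001 (thi2Δ). All libraries labelled BSGX001 (thi2Δ) lay well below all libraries of BSGX001. The log2 fold change was -0.89 (standard error 0.083, edgeR adjusted p = 1.70e-10), which is 53.9% of the BSGX001 level. *MET22* encodes the phosphatase that removes the 3′-phosphate of adenosine bisphosphate, the product left by PAPS reductase. *MET22* was read at 231, 247 and 234 CPM in BSGX001 and at 162, 156 and 151 CPM in BSGX001 (thi2Δ). Here too the strains did not overlap, with a log2 fold change of -0.60 (standard error 0.068, edgeR adjusted p = 9.94e-09). The genes of the preceding steps, *MET3* for ATP sulfurylase and *MET14* for adenylyl sulfate kinase, did not pass the test. *MET14* was at 149 ± 5.38 and 138 ± 7.74 CPM (log2 fold change -0.11, standard error 0.071, edgeR adjusted p = 0.212). *MET3* was at 20.1 ± 2.41 and 17.9 ± 2.19 CPM (log2 fold change -0.18, standard error 0.13, edgeR adjusted p = 0.237). The promoters of *MET14* and *MET16* printed above each hold a single CACGTG, at 228 and 178 bases before the start codon.

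Sulfite reductase is a complex of Met10p and Met5p that carries siroheme. *MET10*, the alpha subunit, was at 87.0 ± 3.80 and 84.9 ± 8.89 CPM and did not pass the test (log2 fold change -0.032, standard error 0.080, edgeR adjusted p = 0.760). *MET5*, the beta subunit, is not among the 33 members and rose by 0.28 on the log2 scale (standard error 0.080, edgeR adjusted p = 0.00441). Whether the 2 subunits differ in their response was not tested. *MET1* and *MET8* encode enzymes of siroheme synthesis, and in both the libraries of BSGX001 (thi2Δ) lay below those of BSGX001. *MET1* had a log2 fold change of -0.20 (standard error 0.075, edgeR adjusted p = 0.0262). This call was lost when either BSGX001 replicate 2 or 3, or BSGX001 (thi2Δ) replicate 1 or 2, was left out, and the value was 0.015 with library totals. *MET8*, at -0.16 (standard error 0.090), had an edgeR adjusted p of 0.138.

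Sulfide is incorporated by Met17p, O-acetylhomoserine sulfhydrylase, with the O-acetylhomoserine made by Met2p. *MET2* was at 73.6 ± 4.99 and 58.2 ± 6.31 CPM, a log2 fold change of -0.33 (standard error 0.085, edgeR adjusted p = 0.00154), and with library totals it was -0.12 and not called (edgeR adjusted p = 0.231).

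*MET17* and *CYS3* lie in the regions raised in BSGX001 (thi2Δ), and neither was raised to the median of its region. *MET17* was read at 49.1, 49.8 and 45.8 CPM in BSGX001 and at 53.5, 49.4 and 52.8 CPM in BSGX001 (thi2Δ). The strains overlapped, with a log2 fold change of 0.11 (standard error 0.083, edgeR adjusted p = 0.298), and the value was 0.32 with library totals (edgeR adjusted p = 0.00197), where the median of all genes was 0.22. Of the 107 tested genes of the chromosome XII stretch, only 1 had a lower log2 fold change, and *MET17* lay 0.95 below the median of the stretch. Its nearest tested neighbours were *HRI1* at 0.81 (standard error 0.093) and *ACO1*, which encodes aconitase, at 0.90 (standard error 0.066). Low values in the stretch were not limited to *MET17*, as *EXG1*, which lies 2 tested genes away and encodes an exoglucanase, was at 0.43 and YLR307C-A at 0.13. In R64 the gene YLR302C is annotated over part of *MET17* on the opposite strand, and whether reads were assigned by strand is not given in the sources used here.

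*CYS3* encodes cystathionine gamma-lyase, which releases cysteine. It was read at 77.7, 82.7 and 75.1 CPM in BSGX001 and at 91.0, 89.8 and 88.4 CPM in BSGX001 (thi2Δ). The strains did not overlap, but the log2 fold change was only 0.19 (standard error 0.074, edgeR adjusted p = 0.0312), which is 114% of the BSGX001 level. The call did not hold without BSGX001 replicate 1 or 3 or without any single library of BSGX001 (thi2Δ), where edgeR adjusted p rose to between 0.0573 and 0.108, nor in the DESeq2 Wald test, at an adjusted p of 0.0526. Of the 85 tested genes of chromosome I, 2 had a lower log2 fold change than *CYS3*, which lay 0.80 below the chromosome's median. Here the neighbours were low as well. *DEP1*, which encodes a subunit of a histone deacetylase complex, was at 0.19 and *SWC3*, which encodes a subunit of the SWR1 complex, at 0.34. *NTG1*, the gene of a DNA repair enzyme, was at 0.27, and *SYN8*, between *NTG1* and *DEP1*, was at 0.52. *TPD3* and *FUN14*, farther out on either side, were at 0.81 and 0.87. Low values were not limited to this group, as *LDS1* and *SSA1*, each 6 tested genes from *CYS3*, were at 0.36 and 0.19. The regions were defined from the same log2 fold changes, so these positions are a description. The number of DNA copies of these regions was not tested.

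**Figure D2:**
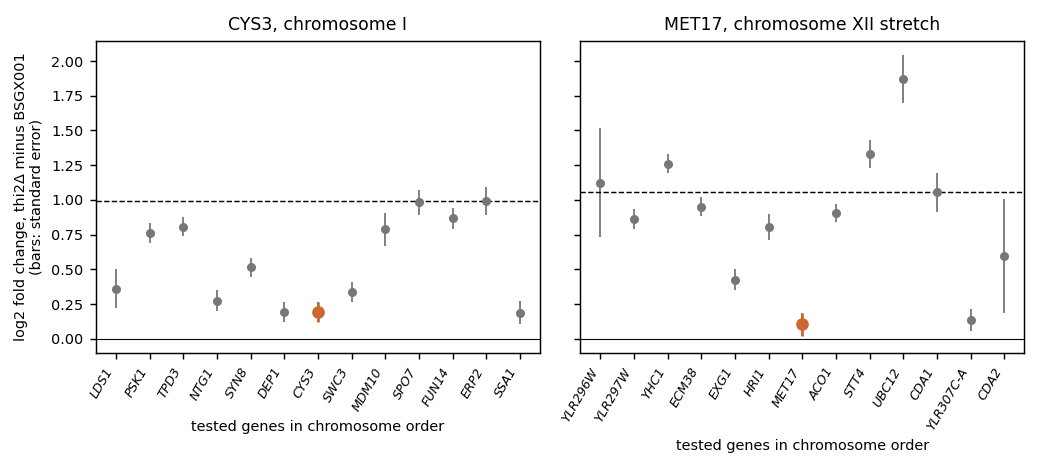
Log2 fold change (y axis, bars for the standard error) of *CYS3* and *MET17* (orange) and of the 6 tested genes on either side of each, in chromosome order on the x axis, with the median of the region as a dashed line. *MET17* at 0.11 lies between *HRI1* at 0.81 and *ACO1* at 0.90, whereas *CYS3* at 0.19 lies beside *DEP1* at 0.19 and *SWC3* at 0.34.

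The other genes of transsulfuration were lower. With *CYS3*, all 4 genes of this step were called, beside 51.3% of all tested genes. *STR3* encodes cystathionine beta-lyase, which turns cystathionine into homocysteine. *STR3* was read at 162, 169 and 175 CPM in BSGX001 and at 110, 105 and 97.1 CPM in BSGX001 (thi2Δ). The strains were clearly separated, and the log2 fold change was -0.70 (standard error 0.072, edgeR adjusted p = 1.77e-09). *STR2*, the gene of cystathionine gamma-synthase, had a log2 fold change of -0.33 (standard error 0.066, edgeR adjusted p = 0.000115), although with library totals it was -0.12 and not called (edgeR adjusted p = 0.118). Together these enzymes convert cysteine to homocysteine. The reverse direction uses Cys4p, cystathionine beta-synthase, and Cys3p. *CYS4* was at 263 ± 16.7 and 232 ± 13.2 CPM with overlapping libraries and a log2 fold change of -0.18 (standard error 0.070, edgeR adjusted p = 0.0278). The call of *CYS4* was lost when either BSGX001 replicate 2 or 3, or BSGX001 (thi2Δ) replicate 1 or 3, was left out, with edgeR adjusted p of up to 0.120, and the value was 0.034 with library totals.

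Homocysteine is methylated by Met6p, the methionine synthase, with a methyl group from folate. *MET6* was at 38.9 ± 0.758 and 41.2 ± 1.03 CPM, a log2 fold change of 0.082 (standard error 0.088, edgeR adjusted p = 0.448), and it was called higher with library totals, at 0.30 (edgeR adjusted p = 0.00538). *MET12* and *MET13* both encode methylenetetrahydrofolate reductases, of which Met13p is known as the main one, and they differed in opposite directions. *MET12* fell from 304 ± 8.62 to 228 ± 6.88 CPM, a log2 fold change of -0.41 (standard error 0.066, edgeR adjusted p = 4.86e-06). *MET13* rose from 81.6 ± 7.28 to 94.9 ± 6.43 CPM, a log2 fold change of 0.22 (standard error 0.080, edgeR adjusted p = 0.0198), with libraries that overlapped. Without BSGX001 replicate 1 the *MET13* value was 0.15 (edgeR adjusted p = 0.133), and it was also not called without BSGX001 (thi2Δ) replicate 1 or 3. *MET7*, which encodes folylpolyglutamate synthetase, was at -0.15 (standard error 0.078, edgeR adjusted p = 0.107).

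Of the 4 genes of S-adenosylmethionine synthesis and homocysteine methylation, only *MHT1* passed the test with TMM scaling. That is 25%, beside 51.3% of all tested genes. *SAM1* and *SAM2* encode S-adenosylmethionine synthetases. *SAM2* was the more abundant per length, at 197 ± 9.08 and 246 ± 14.9 FPKM (fragments per kilobase of gene, scaled to the library total) against 55.1 ± 5.23 and 63.4 ± 4.97 FPKM for *SAM1*. Their log2 fold changes on the count scale were 0.10 (standard error 0.069, edgeR adjusted p = 0.209) for *SAM2* and -0.019 (standard error 0.082, edgeR adjusted p = 0.860) for *SAM1*. With library totals both were called higher, *SAM2* at 0.32 (edgeR adjusted p = 0.000158) and *SAM1* at 0.20 (edgeR adjusted p = 0.0481). *MHT1* and *SAM4* encode methyltransferases that make methionine from homocysteine with S-methylmethionine or S-adenosylmethionine as donors. *MHT1* had 42, 33 and 23 counts in BSGX001 and 82, 51 and 67 in BSGX001 (thi2Δ), which is 4.43, 3.99 and 3.32 CPM against 6.29, 6.17 and 6.61 CPM. The strains did not overlap, and the log2 fold change was 0.68 (standard error 0.21, edgeR adjusted p = 0.00894), between 0.59 and 0.79 with each library left out in turn. At these counts its level rests on few reads. *SAM4* was at 15.2 ± 2.32 and 13.8 ± 0.577 CPM (log2 fold change -0.13, standard error 0.14, edgeR adjusted p = 0.459). Of its 50-base words, 19.9% occur elsewhere in R64, so its reads could have been shared with another locus. For *SAM1* and *SAM2* this share was 1.82% and 1.81%, and for the 30 other members it was 0.

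Among the 4 permeases, *MUP3* fell and *MMP1* rose, so 50% were called, beside 51.3% of all tested genes. *MUP3*, a low-affinity methionine permease gene, was read at 357, 332 and 349 CPM in BSGX001 and at 250, 218 and 210 CPM in BSGX001 (thi2Δ). All 3 libraries labelled BSGX001 (thi2Δ) were lower, with a log2 fold change of -0.61 (standard error 0.071, edgeR adjusted p = 1.70e-08). *MUP1*, the high-affinity methionine permease gene, was at 52.9 ± 2.28 and 46.3 ± 1.10 CPM and just missed the threshold (log2 fold change -0.19, standard error 0.083, edgeR adjusted p = 0.0517), which it passed with the size factors of DESeq2 in edgeR (adjusted p = 0.0454). *MMP1*, the S-methylmethionine permease gene, rose by 0.34 on the log2 scale (standard error 0.099, edgeR adjusted p = 0.00508), from 32.5 ± 3.11 to 41.2 ± 4.43 CPM. Without BSGX001 (thi2Δ) replicate 3 it was 0.27 (edgeR adjusted p = 0.0503). *SAM3*, the S-adenosylmethionine permease gene, was at 0.15 (standard error 0.094, edgeR adjusted p = 0.196), and with library totals it was called higher, at 0.36 (edgeR adjusted p = 0.0019). *MMP1* and *MHT1*, which handle the same compound, are divergent neighbours with 342 bases between their start codons, and the stretch printed above, with 2 copies of CTGTGG, lies between them. They lie on the left arm of chromosome XII, outside the raised stretch.

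The 6 regulators showed 3 falls and no rise, so 50% were called, beside 51.3% of all tested genes. *MET4* was read at 444, 435 and 452 CPM in BSGX001 and at 362, 316 and 322 CPM in BSGX001 (thi2Δ), without overlap. Its log2 fold change was -0.41 (standard error 0.069, edgeR adjusted p = 9.55e-06). *MET30* was read at 628, 546 and 570 CPM and at 523, 472 and 461 CPM, a log2 fold change of -0.26 (standard error 0.072, edgeR adjusted p = 0.0033). Its strains were separated by a narrow gap, and with library totals the value was -0.047 (edgeR adjusted p = 0.567). *CBF1* was read at 84.3, 79.2 and 79.3 CPM and at 69.5, 66.4 and 75.0 CPM, a log2 fold change of -0.20 (standard error 0.077, edgeR adjusted p = 0.0274). That call was lost without BSGX001 replicate 1 and without BSGX001 (thi2Δ) replicate 1 or 2, and the value was 0.012 with library totals. The other partners of Met4p were read less and their strains overlapped. *MET28*, a cofactor of the Cbf1p and Met4p complex, was at 27.4, 27.8 and 23.6 CPM and at 27.9, 20.9 and 29.4 CPM. *MET31* was at 24.5, 22.1 and 19.9 CPM and at 24.1, 19.5 and 20.6 CPM. *MET32*, its paralog, was at 19.5, 23.3 and 15.6 CPM and at 23.7, 23.0 and 19.7 CPM. Their log2 fold changes were -0.0039, -0.049 and 0.18 with standard errors of 0.12, 0.12 and 0.13, and none passed the test (edgeR adjusted p = 0.980, 0.754 and 0.258). With library totals *MET32* was called higher, at 0.39 (edgeR adjusted p = 0.0132).

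**Figure D3:**
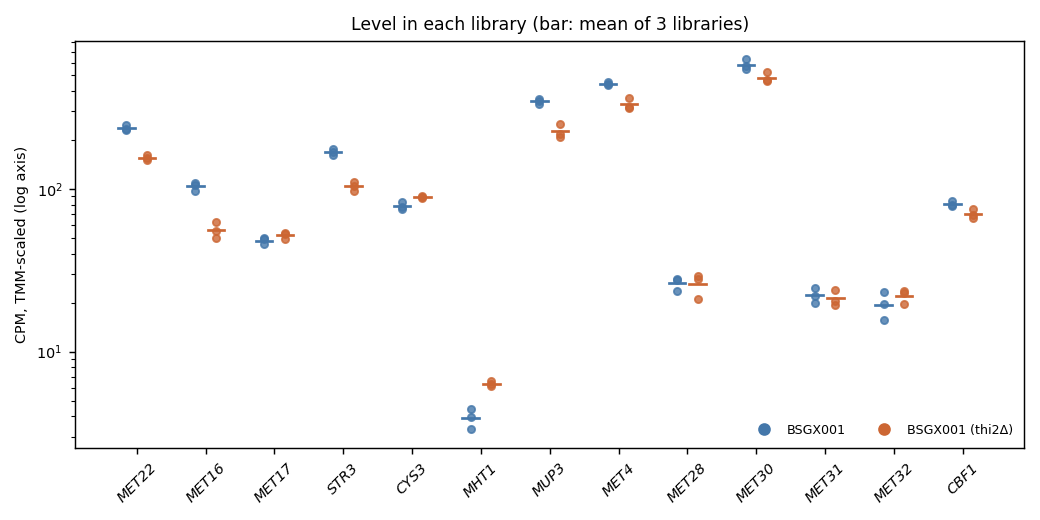
CPM of each library on a log y axis for the members described by single libraries, on the x axis, with BSGX001 in blue, BSGX001 (thi2Δ) in orange and a bar at the mean of 3 libraries. *MET22*, *MET16*, *STR3*, *MUP3* and *MET4* are lower in all 3 libraries of BSGX001 (thi2Δ), *MHT1* is higher in all 3, and *MET17*, *MET28*, *MET31* and *MET32* overlap.

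By the rule of an adjusted p under 0.05, an absolute log2 fold change of at least 0.5 and no overlap between strains, 4 members were lower and 1 was higher, against 6.37% and 9.02% of all tested genes. These counts depend on the scaling. With library totals *MET16* was at -0.68 and *MHT1* at 0.90, but *STR3*, *MUP3* and *MET22* were at -0.48, -0.40 and -0.39. *MET4* and *MET12* were then at -0.20 and -0.19. The median of all genes was 0.22 in that setting. CACGTG was present for 9 of the 12 members called lower, for 10 of the 17 members not called and for 1 of the 4 called higher, which is *CYS3*. Both words together were found for 11 members (33.3%) and for 0.954% of tested genes, and 8 of these 11 members were not called. *MET17* holds both words within the stretch printed above. CTGTGG was present for 6 of the 12 members called lower, for 12 of the 17 not called and for 3 of the 4 called higher. Of the members called higher, *MET13*, *MHT1* and *MMP1* hold CTGTGG and no CACGTG in the window, the latter pair in the same shared stretch. The same holds for *MET12*, *STR2* and *STR3*, which were called lower. Among all tested genes, CACGTG was found for 6.73% of those called lower and 5.98% of those called higher. For CTGTGG these shares were 14.7% and 13%.

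The members differed widely in level, compared here per gene length as FPKM. In BSGX001 they ran from 3.73 ± 0.586 FPKM for *MHT1* to 281 ± 23.6 FPKM for *MET30* (SD, n = 3). In this strain 18 of the 33 lay below the median of all tested genes, 5 below the 20th percentile and 7 above the 80th. Enzymes of consecutive steps were far apart. *MET3*, at 12.1 ± 1.58 FPKM, was above only 12.1% of tested genes, while *MET14*, at 227 ± 6.05 FPKM, was above 86.1%. *MET17* was at 33.5 ± 1.93 FPKM and *MET6* at 15.7 ± 0.151 FPKM, below the gene of their activator, *MET4*, at 204 ± 3.50 FPKM. *MET16* moved from above 74.6% of tested genes in BSGX001 to above 57.7% in BSGX001 (thi2Δ), and *STR3* from 72.3% to 59.5%. *MET14* kept its place, at 86.1% and 85.8%.

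**Figure D4:**
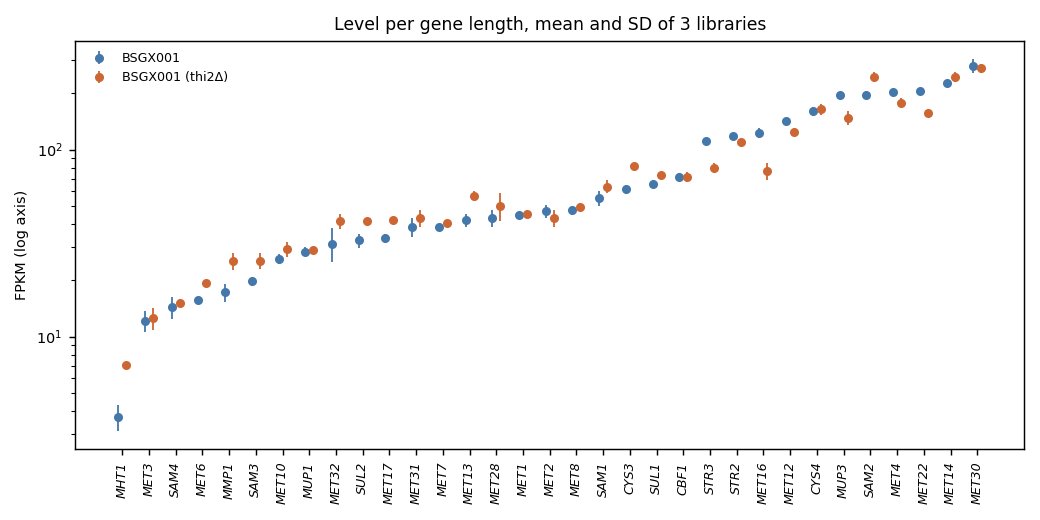
FPKM of the 33 genes on a log y axis, ordered on the x axis by their mean in BSGX001 (blue), with BSGX001 (thi2Δ) in orange and bars for the SD of 3 libraries. The order runs from *MHT1* at 3.73 to *MET30* at 281 FPKM in BSGX001. The values are not scaled by TMM.

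Further genes of sulfur metabolism were read from 9 lists, of which 53 of 54 genes were found (*SEO1* was not analysed here). Of the 53, 13 were higher and 17 were lower, or 24.5% and 32.1%, beside 26.1% and 25.2% of all tested genes. Of the 3 genes from aspartate to homoserine, the carbon source of the pathway, 2 fell. *HOM3*, the aspartate kinase gene, was read at 382, 380 and 378 CPM in BSGX001 and at 194, 172 and 174 CPM in BSGX001 (thi2Δ), and it was the one gene of these lists with a difference of at least 2-fold. Its log2 fold change was -1.08 (standard error 0.068, edgeR adjusted p = 4.27e-14). *HOM2*, the gene of the next enzyme, named after its value was seen, was at -0.69 (standard error 0.070, edgeR adjusted p = 1.01e-09), and *HOM6*, the homoserine dehydrogenase gene, at -0.15 was not called. These enzymes also feed threonine synthesis.

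Among 9 genes of one-carbon folate metabolism, 2 rose and 4 fell. The counts of this and the following lists stand beside 26.1% of all tested genes higher and 25.2% lower. *ADE3*, which encodes the cytosolic C1-tetrahydrofolate synthase, was at -0.75 (standard error 0.066, edgeR adjusted p = 5.28e-11), and *SHM2*, the cytosolic serine hydroxymethyltransferase gene, at 0.37 (standard error 0.080, edgeR adjusted p = 0.000281). Among 6 genes for other sulfur sources, 2 rose and 3 fell. *IRC7*, a beta-lyase gene for cysteine conjugates, was at -0.99 (standard error 0.13, edgeR adjusted p = 5.27e-05), and *JLP1*, a sulfonate dioxygenase gene, at 0.41 (standard error 0.098, edgeR adjusted p = 0.000838). Among 11 glutathione genes, 4 rose and 2 fell. *ECM38*, the gamma-glutamyltranspeptidase gene, was at 0.95 (standard error 0.071, edgeR adjusted p = 1.41e-12) and lies in the raised stretch of chromosome XII, 3 tested genes from *MET17*. *DUG1*, the gene of a dipeptidase that splits cysteinylglycine, was at -0.58 (standard error 0.080, edgeR adjusted p = 3.92e-07).

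Of the 4 other genes of the Met30p ubiquitin ligase, *CDC53*, the cullin, rose by 0.48 (standard error 0.075, edgeR adjusted p = 2.86e-06) and the remaining 3 fell, *SKP1* most, at -0.33 (standard error 0.070, edgeR adjusted p = 0.000235). These proteins serve other ligases as well. Of 8 genes of methionine salvage and polyamine synthesis, 2 rose and 1 fell, with *SPE3*, the spermidine synthase gene, at 0.46 (standard error 0.13, edgeR adjusted p = 0.00369) and *UTR4* at -0.28 (standard error 0.078, edgeR adjusted p = 0.00312). Of 6 broad permeases, *AGP3* rose, at 0.29 (standard error 0.078, edgeR adjusted p = 0.00234), and 2 fell, *BAP3* most, at -0.38 (standard error 0.068, edgeR adjusted p = 2.73e-05). None of the 3 genes for methionine sulfoxide reductases and the NADPH-forming *ZWF1* passed the test, and of *MET5*, *SSU1* and *SAH1* only *MET5* did. With library totals *UTR4* and *SKP1* were no longer called, at -0.066 and -0.11 (edgeR adjusted p = 0.463 and 0.145).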

How the data were processed

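The authors deposited for each of the 6 libraries an expected count per gene, a whole number for every gene and not normalized, and the FPKM, scaled to gene length and library total. The submitters' processing notes name the build R64 and DESeq. The aligner and counter are not given in the sources used here. Tables of the authors' own comparison (fold change, p-value and q-value) and 12 per-sample columns identical to the per-library files were not used. Of 5925 gene IDs, 5923 matched R64.

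Expected counts were compared with edgeR 4.0.16 in R 4.3.3 (filterByExpr, TMM, robust quasi-likelihood test), with p-values adjusted by Benjamini-Hochberg over 5774 genes. Standard errors were taken from the size of each log2 fold change and its F statistic (square root). The biological coefficient of variation was 0.0628, and members had 23 to 6818 counts per library, which limits *MHT1* most. The procedures were tested on simulated data. Every pair of libraries differed by more than sampling noise (smallest chi-square 4.04 per degree of freedom). Members and lists were chosen with earlier results of these data known. Every member is accounted for, single libraries are given for members past 0.05 and 0.5 without overlap, for *CYS3*, *MET17* and the regulators, and the largest rise and fall past the threshold is named in each further list. Alternatives changed the scaling (size factors of DESeq2, plain library totals), the count filter, the test (DESeq2 1.42.0, or limma 3.58.1 on log2(FPKM + 1) and log2(FPKM + 0.1)), the threshold (0.01) or the libraries and genes entered, or added the replicate number as a block. Fold changes on log2(FPKM + 1) understate low genes.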

Additional observations from a re-analysis of the deposited data

How the results depend on the processing

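Of the 33 members, 7 kept their direction and their side of the threshold under every alternative, and 14 changed sign in at least 1. Most sign changes came from settings that move the median of all genes to 0.22, namely library totals, limma on log2(FPKM + 1) and limma on log2(FPKM + 0.1). In that order, genes higher numbered 2999, 2940 and 2936, genes lower 595, 558 and 560, members higher 12, 10 and 10, and members lower 6, 6 and 6, while the median of the members was 0.085, 0.082 and 0.088. Under these 3 settings the log2 fold change was 0.16, 0.16 and 0.16 for *SUL1*, 0.032, 0.044 and 0.048 for *MET3*, 0.11, 0.11 and 0.11 for *MET14*, 0.18, 0.17 and 0.18 for *MET10*, and 0.015, 0.015 and 0.015 for *MET1*. It was 0.055, 0.055 and 0.056 for *MET8*, 0.065, 0.067 and 0.068 for *MET7*, 0.034, 0.034 and 0.034 for *CYS4*, 0.20, 0.20 and 0.21 for *SAM1*, and 0.085, 0.082 and 0.088 for *SAM4*. It was 0.023, 0.025 and 0.026 for *MUP1*, 0.21, 0.19 and 0.19 for *MET28*, 0.16, 0.16 and 0.16 for *MET31*, and 0.012, 0.012 and 0.012 for *CBF1*. Without the genes of the raised regions *MET28* was at 0.011. With each library left out in turn, members higher ranged from 1 to 4, members lower from 9 to 11, and the median of the members from -0.15 to -0.11. Of all genes tested in these fits, 21.4% to 24.3% were higher and 21.4% to 24.7% were lower. *MET28* then ranged from -0.091 to 0.12, *MET31* from -0.15 to 0.032, *SAM1* from -0.080 to 0.027 and *MET10* from -0.11 to 0.040. At an adjusted p under 0.01, 2 members were higher (*MHT1* and *MMP1*). Those still lower were *MET16*, *STR3*, *MUP3*, *MET22*, *MET4*, *MET12*, *STR2*, *MET2* and *MET30*. Nothing in the labels pairs same-numbered libraries (correlation of same-numbered deviations 0.083, -0.068 and -0.054). With the replicate block 4 members were higher and 12 lower, beside 26.5% and 25.8% of all tested genes, and the median of the members was -0.12. The cause was not tested. Low counts limit *MHT1*, *SAM4* and *MET32* most.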
